A study of Mus musculus with 18 samples.

Results

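Genes that make, degrade and sense retinoic acid, together with the gene for chemerin, were read in stromal and lymphatic cells of the mouse small intestine. The set holds 8 genes of the 23238 gene symbols in the count tables: the retinal dehydrogenases Aldh1a1, Aldh1a2 and Aldh1a3, the cellular binding protein Crabp1, the uptake receptor Stra6, the degrading enzyme Cyp26b1, the nuclear receptor Rarb, and Rarres2, which encodes chemerin. They were found by symbol in the tables of all 18 libraries. All 8 were chosen with their differences between these groups already known, so their values are given as a description, with no p-value.

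Vitamin A reaches cells as retinol, which is oxidised to retinal and then, by the ALDH1A enzymes, to retinoic acid, while CYP26 enzymes break retinoic acid down. Retinoic acid acts through RAR and RXR nuclear receptors, which bind paired hexamers in promoters and enhancers. The intestine is a main site of vitamin A uptake, and its stroma is known as a source of retinoic acid for immune cells of the gut. Chemerin is a secreted chemoattractant, known also as the product of a retinoid-responsive gene, and signals through CMKLR1.

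All mice were adult C57BL/6J, and all cells were sorted by flow cytometry. The labels give every library a tamoxifen-dependent Cre (CreERT2) under the Pdgfrb promoter and a Tomato reporter, and the libraries labelled KO carried in addition floxed alleles of both Lats1 and Lats2, the kinases that restrain YAP and TAZ. PDGFRb+ intestinal stromal cells (IntSCs) gave 6 WT and 5 KO libraries, and lymphatic endothelial cells of the lacteals (LECs) gave 4 WT and 3 KO libraries. The Cre acts where the Pdgfrb promoter is active, so the LECs are neighbours of the targeted cells rather than the targeted cells themselves. The labels do not tie a library to an animal. The study's legends count mice per group, pooled from several experiments, and which library came from which experiment is not given in the sources used here. The p-values measure only the spread between these libraries.

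Levels are in CPM, read counts relative to library size scaled with 1 set of TMM factors over all 18 libraries. They compare 1 gene between libraries, not 1 gene with another. Total counts ranged from 5361250 to 10549233 per library, and the ribosomal RNA precursor Rn45s took 7.02% to 24.4% of them. The targeted genes could not check the labels, since the protocol reads 3′ ends and the exons removed are not given in the sources used here. Lats1 lay at 0 to 29.9 CPM in WT IntSCs and 12.5 to 21.6 CPM in the IntSC libraries labelled KO, and Lats2 at 40.8 to 112 CPM and 78.4 to 133 CPM. The 7 fibroblast markers examined were each lower in WT LECs than in WT IntSCs, and 6 of 7 LEC markers were higher, by edgeR's quasi-likelihood test at an adjusted p under 0.05. The fibroblast markers summed to between 9627 and 15004 CPM in WT IntSCs, and to between 555 and 1932 CPM in WT LECs. The LEC markers summed to between 8177 and 11953 CPM in WT LECs and to at most 377 CPM in WT IntSCs. No defining fibroblast marker was at 0 in the LEC groups. In bulk libraries, fewer cells of a type and less RNA per cell cannot be told apart.

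Of the 8 genes, 6 had RefSeq windows from 250 bases before to 50 bases after a transcription start in assembly GRCm38.p6, all but Rarres2 and Aldh1a3. Each window was searched on both strands for the DR5 RARE, a direct repeat of the retinoic acid receptor hexamer with 5 bases between, and for the hexamer GGAATG bound by TEAD factors, the DNA-binding partners of YAP and TAZ. The DR5 RARE stood in 0.0974% of the 32851 RefSeq windows, and among the members only in that of Rarb. GGAATG stood in 14.7% of the windows and in those of Aldh1a1, Crabp1 and Rarb. Among the other retinoid and chemerin genes examined here, 35 had a window, and only Cyp26a1, which encodes another retinoic acid hydroxylase, held a DR5 RARE. A match is a description of letters, not evidence of binding. The 250 bases before the Rarb start on the minus strand (chr14:16575477-16575726, within the span of the gene) are shown because Rarb was among the members that were higher in LECs, with the repeat in capitals from 53 to 37 bases before the start. Below it are the repeats of both genes alone, with the hexamers in capitals, the second read on the strand opposite to Cyp26a1 (chr19:37697776-37697792).
Rarb upstream: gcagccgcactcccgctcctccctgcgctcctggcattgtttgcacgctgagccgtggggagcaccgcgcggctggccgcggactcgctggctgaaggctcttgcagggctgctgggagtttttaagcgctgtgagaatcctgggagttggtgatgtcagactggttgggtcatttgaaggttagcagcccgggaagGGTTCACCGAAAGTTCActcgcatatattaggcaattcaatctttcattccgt
Rarb repeat: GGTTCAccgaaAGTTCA
Cyp26a1 repeat: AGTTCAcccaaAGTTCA

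The retinal dehydrogenases, which make retinoic acid, stood higher in the stromal libraries. Aldh1a1 (chr19:20492715-20643465, plus strand, GENCODE vM21 on GRCm38) had a lowest, median and highest level of 185, 240 and 298 CPM in the 6 WT IntSC libraries. The 5 KO IntSC libraries held 193, 176, 177, 205 and 105 CPM, the 4 WT LEC libraries 62.4, 65.2, 88.9 and 30.7 CPM, and the 3 KO LEC libraries 14.5, 0.765 and 1.17 CPM. The means were 240 ± 45.7 CPM (SD, n = 6) in WT IntSCs, 171 ± 38.6 in KO IntSCs (n = 5), 61.8 ± 23.9 in WT LECs (n = 4) and 5.49 ± 7.83 in KO LECs (n = 3). In that order, only the ranges of the IntSC genotypes overlapped, and the other neighbouring pairs were apart. Mouse Aldh1a7 is a close relative of Aldh1a1 on the same chromosome, and the ends of their transcripts were 79.9% identical over 503 aligned positions. Aldh1a7 had at most 15 reads in any library except WT LEC 3, where it had 269, so reads of Aldh1a1 could have been divided between the genes there.

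Aldh1a2 (chr9:71215789-71296243, plus strand) varied widely between libraries of a group. WT IntSCs ranged from 65.6 to 192 CPM with a median of 123 CPM, and the KO IntSC libraries held 88.1, 62.9, 77.1, 155 and 63.9 CPM. In WT LECs the libraries held 24, 0.369, 12.7 and 29.7 CPM, and in KO LECs 0.142, 10.6 and 26.4 CPM. Each LEC genotype thus had 1 library near the detection limit beside others above 10 CPM. The IntSC genotypes overlapped, the LEC genotypes overlapped, and the IntSC and LEC libraries were apart.

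Aldh1a3 (chr7:66390890-66427517, minus strand) was the dehydrogenase whose mean was higher in KO than in WT IntSCs. WT IntSCs ranged from 177 to 288 CPM with a median of 234 CPM, against 464, 313, 373, 280 and 372 CPM in KO IntSCs. Of the 5 KO libraries, KO IntSC 4 was the one that lay within the WT range. WT LECs held 23.3, 5.54, 17.5 and 12.6 CPM and KO LECs 33.5, 11.3 and 27.2 CPM, with overlapping ranges. The group means were 360 ± 70.2 CPM in KO IntSCs (n = 5), 233 ± 45.0 in WT IntSCs (n = 6), 24.0 ± 11.5 in KO LECs (n = 3) and 14.7 ± 7.53 in WT LECs (n = 4).

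Cyp26b1 (chr6:84571414-84593908, minus strand), which degrades retinoic acid, had the opposite distribution. WT LECs held 715, 1026, 1016 and 1223 CPM and KO LECs 286, 684 and 779 CPM. WT IntSCs ranged from 41.4 to 75.8 CPM, with a median of 65.2 CPM. The 5 KO IntSC libraries divided: libraries 1, 2 and 3 held 153, 142 and 158 CPM, above every WT library, while libraries 4 and 5 held 52.1 and 46.3 CPM, within the WT range. The order was WT LEC (mean 995 ± 209), KO LEC (583 ± 262), KO IntSC (110 ± 56.2) and WT IntSC (62.3 ± 13.5), and only the KO LEC and KO IntSC ranges were apart as neighbours.

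Rarb (chr14:16430839-16819156, minus strand), a receptor for retinoic acid whose gene is itself known to respond to it, was likewise higher in LECs. WT LECs held 47.3, 55.6, 105 and 76.2 CPM and KO LECs 95.6, 69.9 and 56 CPM. WT IntSCs ranged from 2.90 to 15.8 CPM with a median of 6.98 CPM, and KO IntSCs held 4.44, 8.99, 7.49, 5.02 and 2.32 CPM. Within each cell type the genotypes overlapped, and no IntSC library reached a LEC library. Exons of Rarb share 1793 bases with those of Top2b on the opposite strand. Top2b, which encodes a DNA topoisomerase, had group means between 140 and 166 CPM, and its fitted difference between WT LECs and WT IntSCs was 0.24 ± 0.20 (log2, SE), against 3.03 ± 0.50 for Rarb.

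Rarres2 (chr6:48569696-48572789, minus strand), the chemerin gene, ranged from 264 to 419 CPM in WT IntSCs with a median of 324 CPM. KO IntSCs held 217, 232, 205, 353 and 182 CPM, WT LECs 48.6, 81.6, 54.2 and 32.0 CPM, and KO LECs 1.42, 1.75 and 4.67 CPM. The means were 338 ± 68.7, 238 ± 66.9, 54.1 ± 20.6 and 2.61 ± 1.79 CPM. The genotypes overlapped in IntSCs and were apart in LECs, where the 4 WT libraries together held 2076 Rarres2 reads and the 3 KO libraries 62.

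Rarres2 had close to the same count as Lrrc61 in all libraries but KO LEC 1 and KO LEC 2. Lrrc61 is a gene on the opposite strand whose exons share 892 bases with those of Rarres2. In the 15 IntSC and WT LEC libraries, the Lrrc61 level was 0.815 to 1.07 times the Rarres2 level. The 3 KO LEC libraries held 7.55, 24.3 and 4.80 CPM of Lrrc61, or 5.30, 13.9 and 1.03 times Rarres2. KO LEC 1 and KO LEC 2 thus departed from that range, and KO LEC 3 lay within it. Whether the counting used the strand is not given in the sources used here, and without it the reads of such a pair cannot be told apart. Lrrc61 was singled out after its values were seen.

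**Figure D1:**
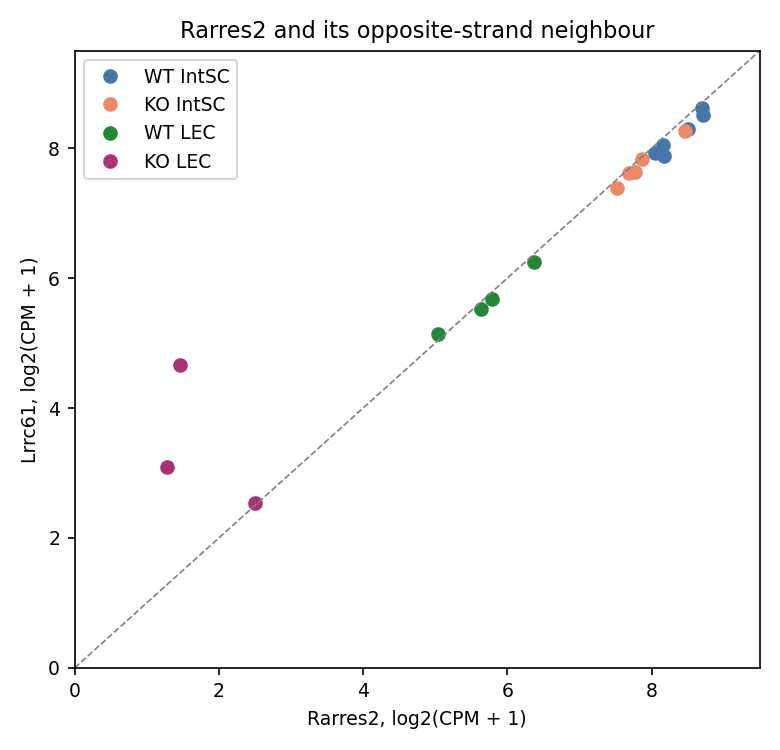
Level of Lrrc61 (vertical axis) against Rarres2 (horizontal axis), both as log2(CPM + 1), 1 point per library, coloured by group, with the line of equality dashed. The 15 IntSC and WT LEC libraries lie along the line, and of the 3 KO LEC libraries 2 lie above it.

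Stra6 and Crabp1 were at or near the limit of detection. Crabp1, which binds retinoic acid in the cytoplasm, had 0 reads in all 18 libraries, which allows a level of up to 0.0215 CPM over their 139441225 reads. Stra6, the membrane receptor through which retinol enters cells, had 39 reads in WT LEC 2 (4.80 CPM), 11 in WT IntSC 1, 6 in WT LEC 1, 1 in KO IntSC 3 and 0 in the other libraries. Its 3 KO LEC libraries together allow up to 0.129 CPM. Such limits cover counting error only, since copies made by PCR were not told apart. Neither gene had enough reads to be fitted.

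**Figure D2:**
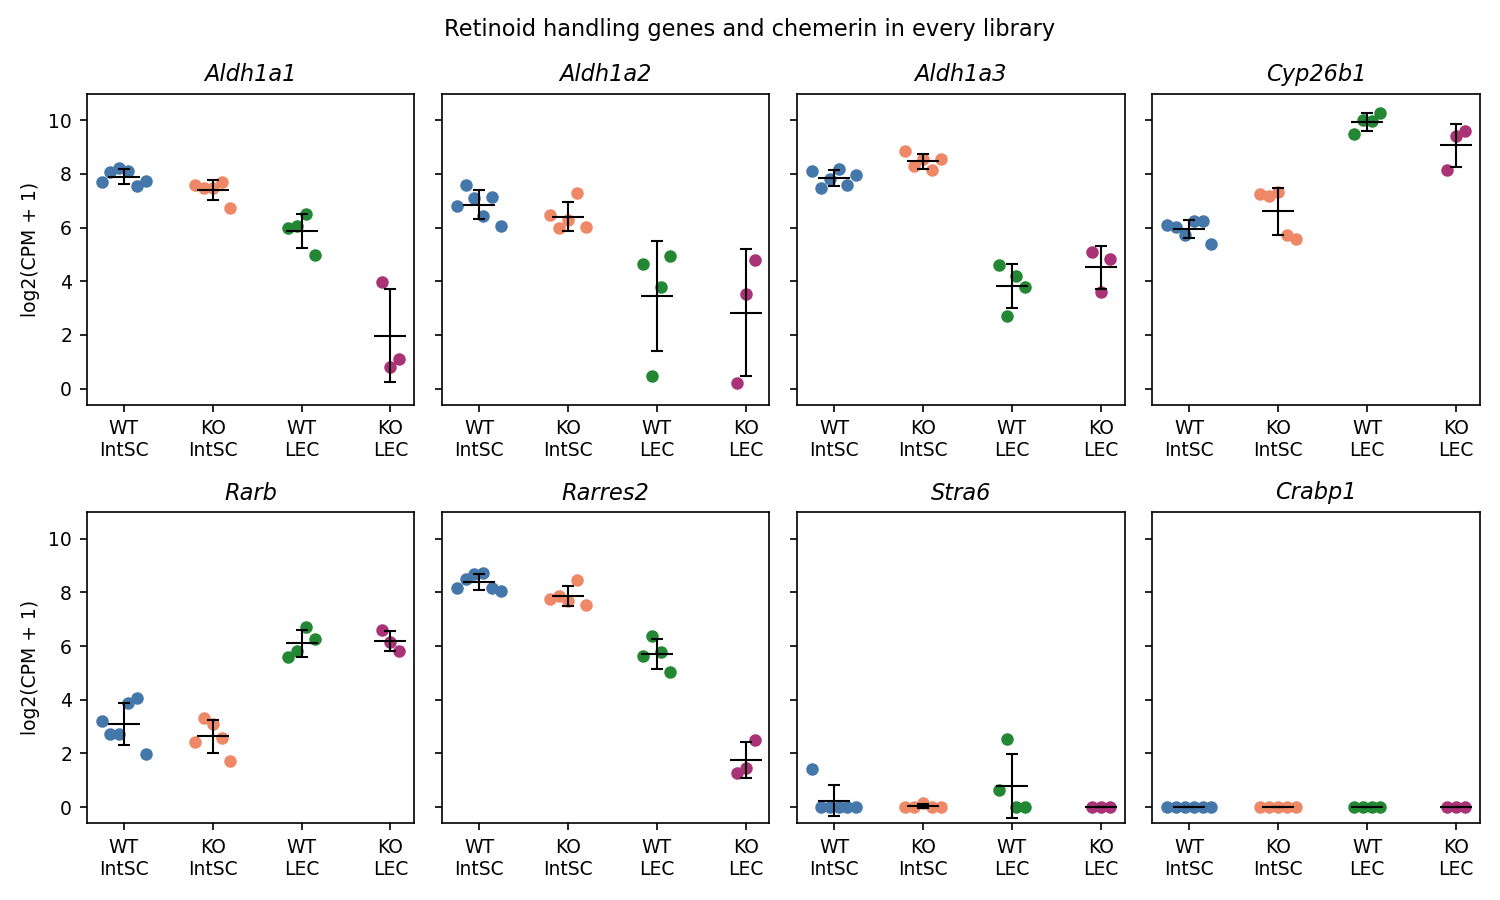
Level of each of the 8 genes, as log2(CPM + 1), in every library (points) of the 4 groups, with the mean and SD of each group on that scale (bars). Aldh1a1, Aldh1a2, Aldh1a3 and Rarres2 stand higher in IntSCs, Cyp26b1 and Rarb stand higher in LECs, and Crabp1 lies at 0 throughout.

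The first comparison asked how the set differed between the cell types without LATS1/2 loss. In WT mice, 4 of the 6 genes with enough reads were lower in LECs than in IntSCs and 2 were higher. Log2 fold changes, LEC over IntSC, were −1.96 ± 0.29 for Aldh1a1 (SE), −2.86 ± 0.72 for Aldh1a2, −3.98 ± 0.38 for Aldh1a3, −2.65 ± 0.29 for Rarres2, 3.99 ± 0.23 for Cyp26b1 and 3.03 ± 0.50 for Rarb. In means of CPM, Cyp26b1 was 16.0-fold and Rarb 8.19-fold higher in LECs. None of the 6 overlapped between the groups, and all 6 passed the threshold in the fit over all genes, where 22.6% of 12203 genes passed it (12.3% lower and 10.3% higher in LECs) and 21.1% did not overlap (11.4% below and 9.76% above). Because the genes were chosen with this difference known, nothing is read from those counts. Aldh1a2 was past the threshold neither with the replicate number as a block nor without WT LEC 3.

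The other genes of the pathway, 45 in the tables and 30 with enough reads, were then read in the same fit (edgeR, quasi-likelihood, adjusted over all genes). Of the 30, 4 were higher in WT LECs, 5 were lower and 21 did not pass. Over all 12203 genes tested, 10.3% were higher in WT LECs and 12.3% lower, 22.6% together. Their median log2 fold change was 0.40, beside −0.04 over all genes.

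Of the 4 storage and carotenoid genes fitted, 2 were lower in LECs and 2 did not pass. Lrat, which esterifies retinol for storage, had 77.8 to 164 CPM in WT IntSCs and 13.3, 0.369, 9.26 and 24.0 CPM in WT LECs (log2 fold change −3.32 ± 0.70, adjusted p = 0.00331). Bco1, which cleaves beta-carotene to retinal, had 1 to 58 reads per WT IntSC library and 0 in the 4 WT LEC libraries (adjusted p = 0.0144). With reads pooled over each group and 3 reads as the floor in LECs, it was at least 56.6-fold lower there. That bound leaves out the spread between libraries, which was 0.135 to 9.84 CPM in WT IntSCs. Under the replicate block the adjusted p was 0.0579 for Lrat and 0.127 for Bco1.

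Of the 11 genes fitted that interconvert retinol and retinal, 2 were lower in LECs, 1 was higher and 8 did not pass. Rdh10, which oxidises retinol to retinal, had 43.9 to 109 CPM in WT IntSCs and 13.1, 0.246, 16.8 and 2.09 CPM in WT LECs (−3.12 ± 0.80, adjusted p = 0.0119). Adh1, an alcohol dehydrogenase that also oxidises retinol, was lower in LECs as well (−2.80 ± 0.56, adjusted p = 0.00198). Dhrs3, which reduces retinal back to retinol, was higher in LECs: 247, 215, 433 and 462 CPM against 5.35 to 37.0 CPM in WT IntSCs (4.31 ± 0.46, adjusted p = 7.69e-06). The 4 WT LEC libraries were apart from all 6 WT IntSC libraries for each of these 3 genes.

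Of the 4 carriers fitted, 2 were higher in LECs and 2 did not pass. Rbp4, which carries retinol in plasma, and Rbp7, a cellular retinol-binding protein, were the higher ones. Rbp7 had 34.0, 13.4, 12.7 and 10.1 CPM there and 0 to 2.28 CPM in WT IntSCs (5.24 ± 1.48, adjusted p = 0.0181, and 0.0586 without WT LEC 1). Rbp4 ranged from 5.99 to 112 CPM in WT LECs, overlapped the IntSC range and had an adjusted p of 0.0438. That call was lost without WT LEC 3 (0.285), with the replicate block (0.320), with RLE factors (0.0511), with all 4 groups in 1 fit (0.0581) and without any of 5 other libraries (0.0790 to 0.0894). Crabp2, another retinoic acid binding protein, had 0 reads in all 7 LEC libraries and was not fitted. It was also low in IntSCs, with 0 reads in 3 of 6 WT and 3 of 5 KO libraries.

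None of the 5 other receptors passed in this comparison with the settings used throughout. Log2 fold changes were 0.61 ± 0.41 for Rara (adjusted p = 0.340), 1.49 ± 0.53 for Rarg (adjusted p = 0.0539) and 0.04 ± 0.26 for Rxra (adjusted p = 0.937). Rarg passed under 3 alternatives, with an adjusted p of 0.0452 with no filter beyond 1 read, 0.0294 with all 4 groups in 1 fit and 0.0309 without WT IntSC 4. Of the retinoic acid responsive genes, Hic1, a transcriptional repressor, was higher in LECs (0.92 ± 0.26, adjusted p = 0.0167; 0.143 with the replicate block and 0.0513 without WT LEC 4). Cyp26a1, whose DR5 RARE is shown above, had 2 reads in KO IntSC 1, 1 in KO LEC 3 and 0 elsewhere.

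Of the chemerin receptors, Cmklr1, which signals, was lower in WT LECs (15.8, 19.9, 2.99 and 1.39 CPM) than in WT IntSCs (23.8 to 96.5 CPM; −2.68 ± 0.71, adjusted p = 0.0129). Ccrl2, which binds chemerin without signalling, had a log2 fold change of 0.003 ± 0.74 (adjusted p = 0.998). Gpr1, a further chemerin receptor, had 0 reads in all 7 LEC libraries. It was also low in IntSCs, with 0 reads in 4 of 6 WT and 2 of 5 KO libraries. In WT mice, Rarres2, with the limit given above for Lrrc61, and Cmklr1 were thus both at higher level in the stromal libraries. In the KO groups the Cmklr1 ranges overlapped, at 37.0 to 57.6 CPM in IntSCs and 0.130 to 37.5 CPM in LECs.

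**Figure D3:**
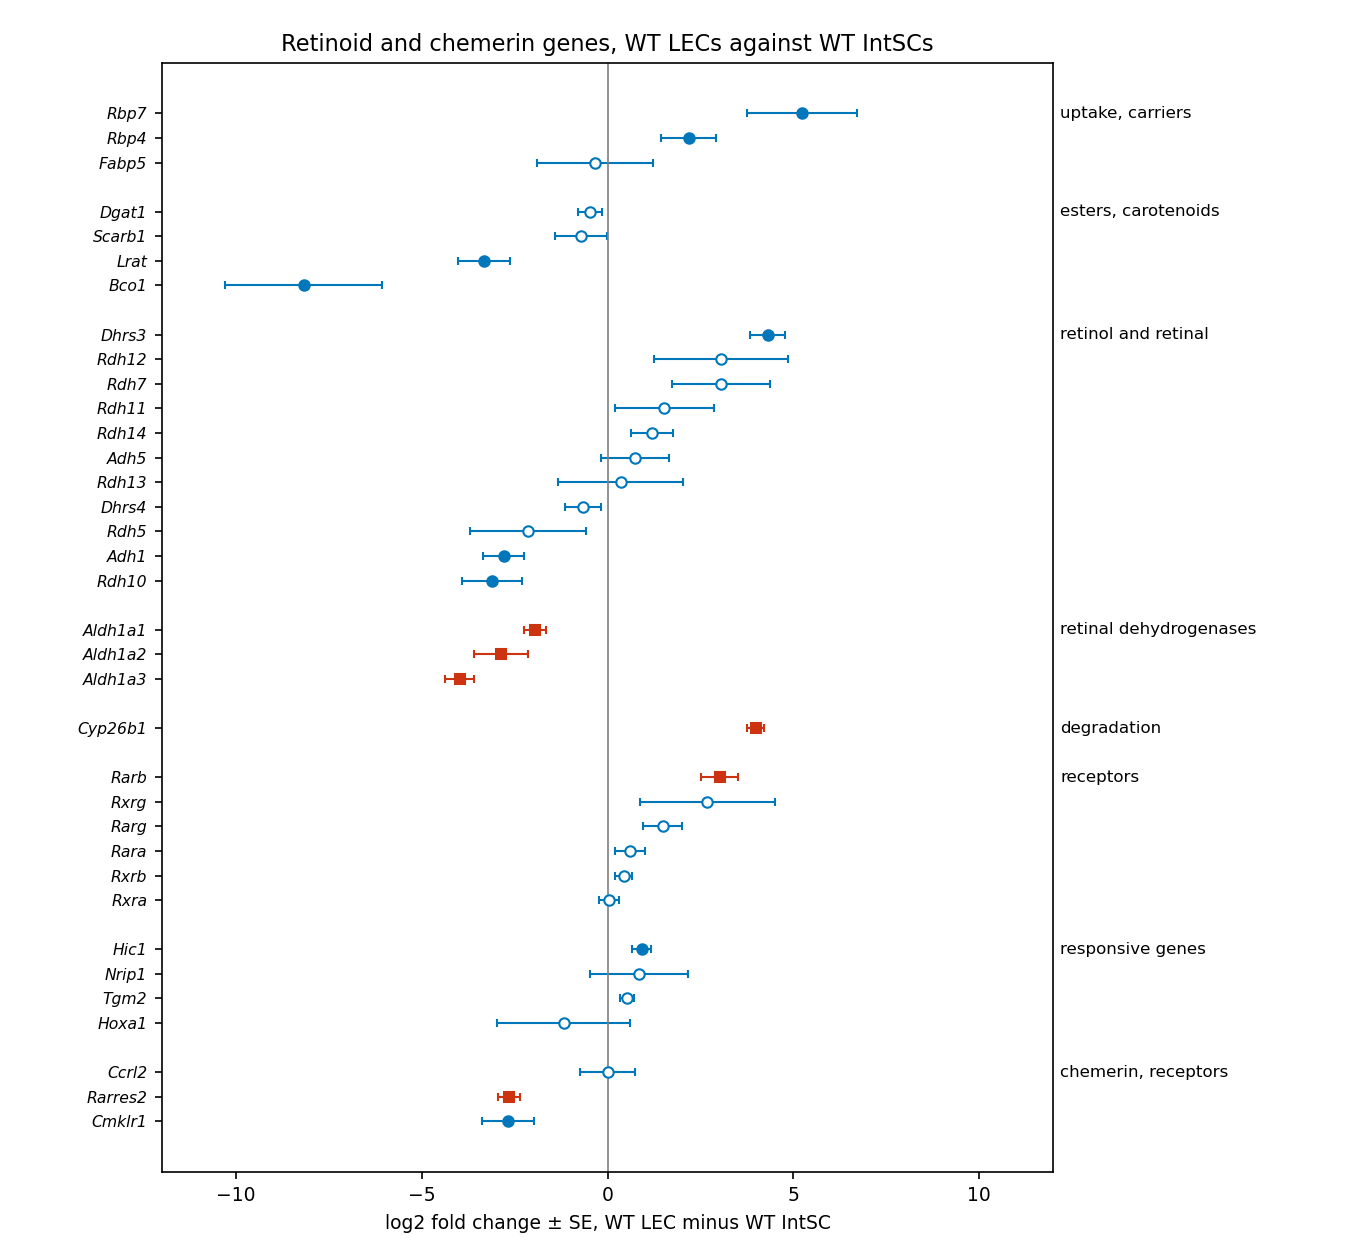
Log2 fold change ± SE, WT LEC over WT IntSC, of the 6 members with enough reads (red squares) and of 29 other pathway genes (blue circles, filled where the adjusted p was under 0.05), grouped by role. The 3 dehydrogenases lie to the left, between −1.96 and −3.98, and Cyp26b1, Dhrs3 and Rarb to the right, between 3.03 and 4.31.

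The second comparison asked what differed in the targeted stroma. In KO IntSCs against WT IntSCs, log2 fold changes were −0.51 ± 0.20 for Rarres2, −0.49 ± 0.20 for Aldh1a1, −0.45 ± 0.28 for Aldh1a2, 0.62 ± 0.18 for Aldh1a3, 0.82 ± 0.30 for Cyp26b1 and −0.62 ± 0.73 for Rarb. In means of CPM, Aldh1a3 was 1.55-fold and Cyp26b1 1.77-fold higher in KO IntSCs, and Rarres2 was 1.42-fold and Aldh1a1 1.40-fold lower. The genotypes overlapped for all 6. None passed the threshold in the edgeR fit, where 1.47% of 12421 genes passed it and 2.82% did not overlap. Aldh1a3 passed it with DESeq2, which called 376 genes in place of 183. In edgeR 4 of the 6 had an unadjusted p under 0.05, as did 9.81% of all genes tested. Nothing is read from these counts. Without KO IntSC 4 the log2 fold change was −0.69 for Rarres2 and −0.73 for Aldh1a2.

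The summed levels of fibroblast, blood endothelial, and smooth muscle and pericyte markers had different but overlapping ranges in the IntSC genotypes. Of 7 fibroblast markers 6 had negative log2 fold changes and 1, Col3a1, passed (−0.92 ± 0.23, adjusted p = 0.0438). Pdgfrb went the other way (0.86 ± 0.23, adjusted p = 0.0613 in edgeR), with every KO library above every WT library. Pdgfra, among the 6, stood at −0.03 ± 0.20. The fibroblast markers summed to 9627 to 15004 CPM in WT IntSCs and 6710 to 11546 CPM in KO IntSCs. All 5 blood endothelial markers had positive log2 fold changes and none passed, with sums of 291 to 510 CPM in WT and 391 to 995 CPM in KO IntSCs. The 6 smooth muscle and pericyte markers summed to 1145 to 1812 CPM in WT and 1324 to 2298 CPM in KO IntSCs, and none passed. The part of these cell types in the members' differences was not tested.

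None of the 27 other pathway genes fitted in IntSCs passed in edgeR. There 4 had an unadjusted p under 0.05, beside 9.81% of all genes tested. Lrat and Tgm2 were lower in KO IntSCs. Adh1 (0.75 ± 0.25, adjusted p = 0.175 in edgeR) and Fabp5 (1.66 ± 0.77, adjusted p = 0.478) were higher. Of these 4, Tgm2 and Lrat passed with DESeq2, which called 376 genes. Their median log2 fold change was 0.14, beside 0.003 over all genes. Lrat held 74.8, 46.4, 84.0, 57.5 and 35.8 CPM in KO IntSCs against 77.8 to 164 CPM in WT IntSCs (−0.98 ± 0.26, adjusted p = 0.0594 in edgeR and 0.0159 with DESeq2). Tgm2, a transglutaminase whose gene responds to retinoic acid, held 634, 645, 873, 1403 and 605 CPM against 1053 to 1632 CPM (−0.78 ± 0.20, adjusted p = 0.0589 in edgeR, 0.00738 with DESeq2, 0.0372 with the replicate block and 0.00307 without KO IntSC 4). Lrat, Tgm2, Adh1 and Fabp5 were named for this comparison after their values were seen. For Rdh10, Dhrs3, Rara, Rarg, Rxra, Cmklr1 and Ccrl2 the log2 fold changes lay between −0.47 and 0.39, with adjusted p of 0.755 or more.

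The third comparison read the same genes in LECs, the cells that neighbour the targeted stroma. The KO LEC libraries held less of Rarres2 and Aldh1a1 than the WT LEC libraries, with no overlap for either. Log2 fold changes were −4.36 ± 0.92 for Rarres2, −3.48 ± 1.06 for Aldh1a1, −0.41 ± 1.67 for Aldh1a2, 0.72 ± 1.12 for Aldh1a3, −0.76 ± 0.32 for Cyp26b1 and 0.07 ± 0.45 for Rarb. None passed the threshold in edgeR, where 0.0658% of 10639 genes passed it and 9.81% did not overlap, 5.8% with the KO libraries below. At an unadjusted p under 0.05 there were 3 of the 6, beside 7.87% of all genes tested. Rarres2 and Aldh1a1 passed with DESeq2 and with all 4 groups in 1 fit. These settings called 309 and 538 genes, in place of 7. Nothing is read from these counts. KO LEC 1 held 14.5 CPM of Aldh1a1, and without it the log2 fold change was −5.97, as against −5.04 with the replicate block. Without KO LEC 3 that of Rarres2 was −5.07. The fitted difference of Lrrc61, which shares exonic bases with Rarres2, was −2.06 ± 0.81.

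Fibroblast markers were also lower in KO LECs, beside these genes. All 7 had negative log2 fold changes in the LEC fit, none passed in edgeR, and 2 had an unadjusted p under 0.05. Their summed level was 555 to 1932 CPM in WT LECs and 280 to 541 CPM in KO LECs, a 2.29-fold difference of means, or 1.46-fold without WT LEC 1, which held the most. Pdgfra, which marks fibroblasts, had 17.1, 0.861, 5.70 and 23.2 CPM in WT LECs and 0.570, 0.328 and 0.389 CPM in KO LECs, and Col3a1, a fibrillar collagen, was 8.13-fold lower in KO LECs. Dcn, a proteoglycan and the most abundant of the markers, was 2.01-fold lower, and Lum, another proteoglycan, 1.01-fold. Without WT LEC 1 the WT over KO ratio was 5.4 for Col3a1, 1.28 for Dcn and 0.367 for Lum.

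Other marker lists were read in the LEC genotypes as well, and none of their fitted genes passed in edgeR. The ranges were apart for the blood endothelial sum and overlapped for the other sums given here. The 6 smooth muscle and pericyte markers summed to 89.9 to 274 CPM in WT LECs and 114 to 128 CPM in KO LECs. The 5 blood endothelial markers summed to 546 to 832 CPM in WT LECs and 446 to 520 CPM in KO LECs, with Sox17 at 0 in the latter. Emcn made up most of these sums, with means of 504 CPM in WT LECs and 290 CPM in KO LECs. Plvap went the other way, with means of 95.2 and 112 CPM. The 6 dendritic and myeloid markers summed to 59.5 to 151 CPM in WT LECs and 14.8 to 62.3 CPM in KO LECs, and Itgax was at 0 in both. Cd74 made up most of these sums, with means of 85.1 and 36.6 CPM, while Ptprc had means of 0.0615 and 0.0364 CPM. The 4 enteric glia markers summed to 0 to 28.1 CPM and 0.109 to 1.71 CPM, with Gfap at 0 in both. The 7 epithelial markers summed to 1.29 to 27.7 CPM and 0.997 to 111 CPM, with Krt20 at 0 in both and Vil1 in KO LECs. The part of these cell types in the LEC differences was not tested.

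As a share of the WT IntSC mean, WT LECs held 9.46% to 24.1% for Rarres2 and 12.8% to 37.1% for Aldh1a1. The summed fibroblast markers stood at 4.49% to 15.6% there. In KO LECs the shares were 0.421% to 1.38% for Rarres2, 0.319% to 6.06% for Aldh1a1 and 2.27% to 4.38% for the summed markers. Single markers differed widely from the sum. Their mean shares in KO LECs ran from 0.113% for Pdgfra to 5.14% for Dcn, with Col3a1 at 0.781%, beside 0.772% for Rarres2. In WT LECs they ran from 3.09% for Pdgfra to 10.3% for Dcn, beside 16.0% for Rarres2. The part of stromal RNA in the LEC differences was not tested.

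**Figure D4:**
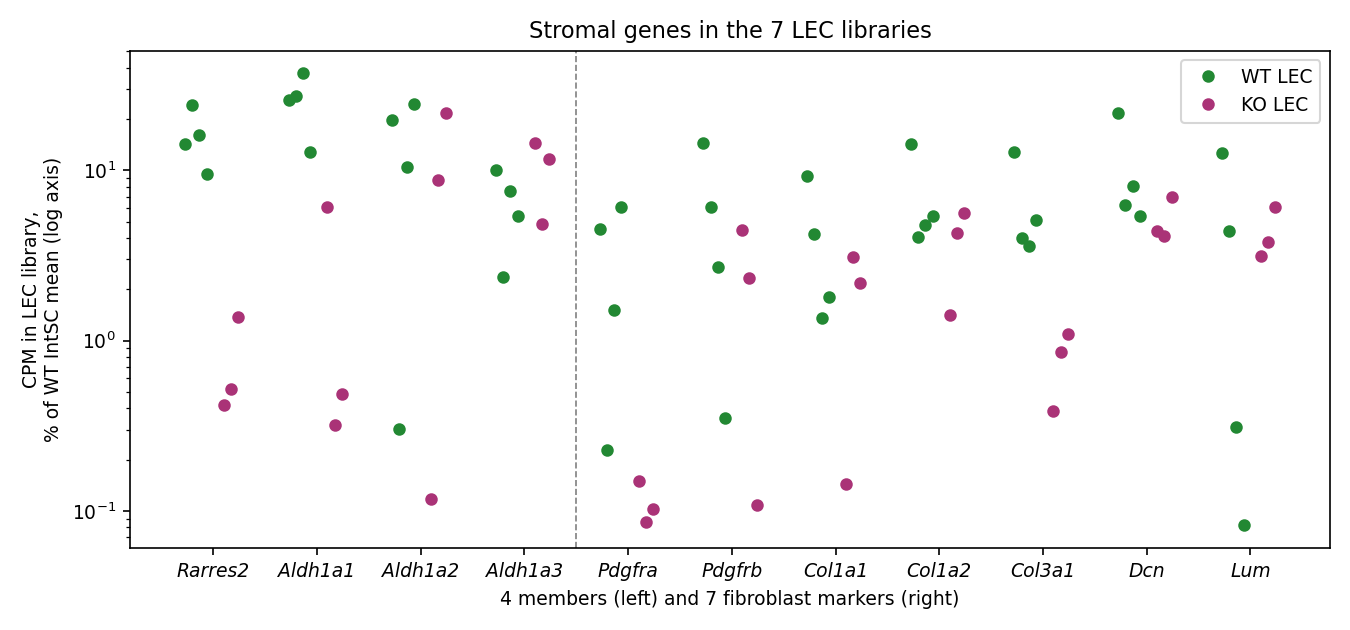
Level in each of the 7 LEC libraries as a percentage of the WT IntSC mean (log axis) for 4 members, left of the dashed line, and 7 fibroblast markers, right of it, with WT LEC libraries in green and KO LEC libraries in magenta. Rarres2, Aldh1a1, Pdgfra and Col3a1 separate the genotypes, and the other 7 genes overlap.

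Of the 27 other pathway genes fitted in LECs, none passed in edgeR. There 5 had an unadjusted p under 0.05, beside 7.87% of all genes tested. Lrat and Rdh11 passed with DESeq2, which called 309 genes. Their median log2 fold change was −0.40, beside −0.03 over all genes. Lrat had 483 reads in the 4 WT LEC libraries and 3 in the 3 KO LEC libraries, a ratio of 96.0 after scaling to total counts. Its 95% exact counting interval of 32.6 to 467 covers counting error only and leaves out the spread between libraries. Lrat ranged from 0.369 to 24.0 CPM in WT LECs and from 0 to 0.219 CPM in KO LECs. In edgeR the log2 fold change was −6.43 ± 2.65 (adjusted p = 0.539), and with DESeq2 the adjusted p was 0.0242. Rdh11, a retinal reductase, had 42, 82, 131 and 236 reads in WT LECs and 0 in the 3 KO LEC libraries (adjusted p = 0.390 in edgeR). Dhrs3 had 163, 171 and 224 CPM in KO LECs against 215 to 462 CPM in WT LECs (−0.85 ± 0.33, adjusted p = 0.518). Rarg had a log2 fold change of 0.95 ± 0.43 (adjusted p = 0.618). Rdh11 and Lrat were named here after their values were seen.

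**Figure D5:**
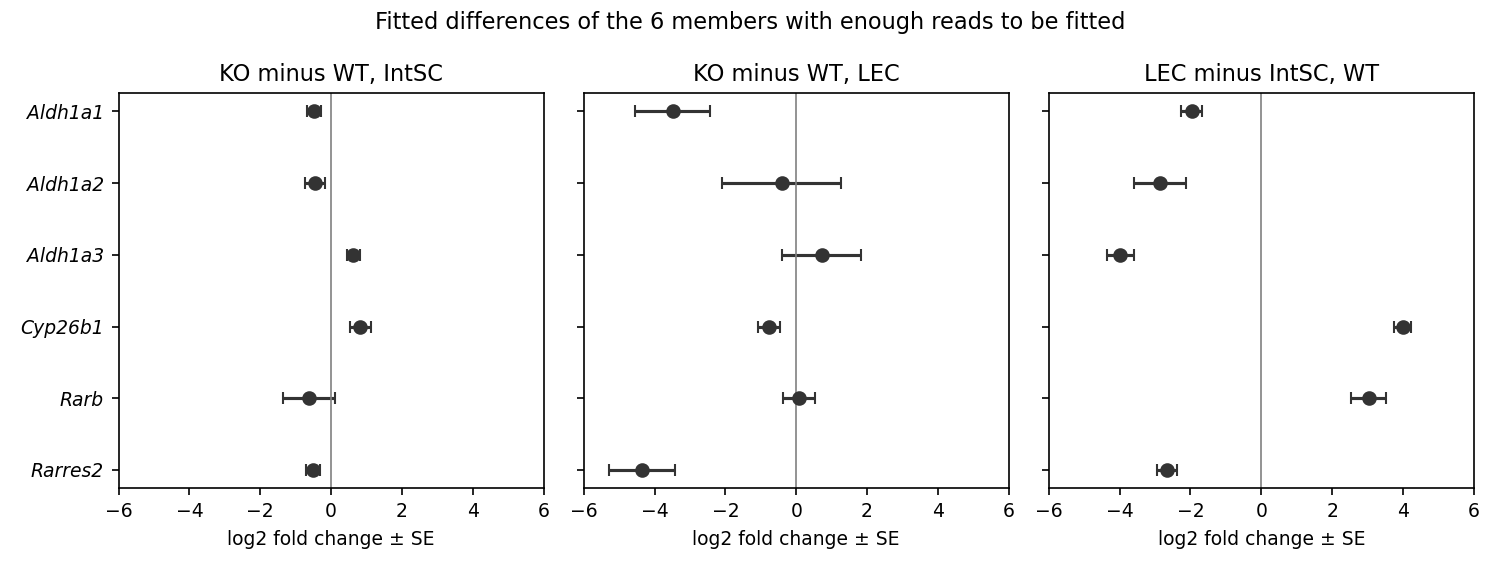
Log2 fold change ± SE of the 6 members with enough reads in 3 comparisons, KO over WT in IntSCs (left), KO over WT in LECs (centre) and LEC over IntSC in WT mice (right). The IntSC genotype differences lie between −0.62 and 0.82, and in LECs Rarres2 (−4.36) and Aldh1a1 (−3.48) lie farthest from 0.

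The fourth comparison asked whether the genotype difference was the same in both cell types, as an interaction over all 18 libraries (IntSC difference minus LEC difference). The estimates were 3.91 ± 0.48 for Rarres2, 3.05 ± 0.81 for Aldh1a1, 1.66 ± 0.50 for Cyp26b1, 0.04 ± 1.22 for Aldh1a2, −0.02 ± 0.46 for Aldh1a3 and −0.62 ± 0.76 for Rarb on the log2 scale. Without KO LEC 1 that of Aldh1a1 was 5.57, and without KO LEC 3 that of Rarres2 was 4.61. Rarres2 passed the threshold in edgeR, where 1.7% of 14015 genes (238) passed it. Aldh1a1 and Rarres2 passed with DESeq2, which called 1023 genes. Nothing is read from these counts. Over all genes the median was 0.24. Of the 34 other pathway genes fitted, only Lrat passed (5.47 ± 1.09, adjusted p = 0.00896), and its adjusted p was 0.470 with the replicate block.

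Likeness of pattern was measured as the root mean square difference of log2(CPM + 1), centred per gene, over all 18 libraries, among 8332 other genes with a mean of at least 20 CPM in a group. Nearest to Rarres2 were Gem (0.58) and C3 (0.58), against an SD of 2.40 for Rarres2 itself. Aldh1a1 was nearest to Atg16l2 (0.72), Ppp2r3a (0.72) and C3 (0.74). C3, complement component 3, thus stood among the 3 nearest of both, with group means of 1222, 926, 214 and 21.1 CPM in WT IntSCs, KO IntSCs, WT LECs and KO LECs. Aldh1a3 was nearest to Aif1l (0.53), Fzd2 (0.60) and Synpo2 (0.62), and Aldh1a2 to Cyp7b1 (0.86), Mturn (0.87) and Prickle2 (0.89). Rarb was nearest to Unc5b (0.52), Cav1 (0.57) and Iqck (0.60), and Cyp26b1 to Pxn (0.50), Dock9 (0.58) and 6430548M08Rik (0.60).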

How the data were processed

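RNA from sorted IntSCs and LECs was made into QuantSeq libraries, which read transcript 3′ ends. The submitters' processing notes name Bowtie2, edgeR and the build mm10, and the study's methods name TopHat and Cufflinks. The counting program, its strand setting and the annotation are not given in the sources used here. The authors deposited 1 table of raw counts of reads per gene symbol for each library, with 23282 rows and 23238 symbols, of which 35 stood on more than 1 row and were summed. GENCODE vM21 (GRCm38) gave coordinates and RefSeq (GRCm38.p6) gave promoter sequences.

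Sample titles gave the group and number of each library. The test was that of edgeR 4.0.16, run in R 4.3.3 (TMM, filterByExpr, robust quasi-likelihood fit, Benjamini-Hochberg adjustment over all genes, threshold 0.05), with only the compared groups in each fit and all 4 in the interaction. SEs come from the F statistic. Members, pathway list, markers and alternatives were chosen with earlier results of these data known. The text names the 8 members, pathway genes past the threshold (at most 10 per comparison), and Cmklr1, Gpr1, Ccrl2, Rara, Rarg, Rxra, Rdh10, Dhrs3 and Crabp2 throughout, and the 3 genes most like each member. The results of some genes under these rules are not reported here, though counts of list genes include them. Alternatives were DESeq2 1.42.0, RLE factors, a mean count of at least 10, no filter beyond 1 read, the replicate number as a block, all 4 groups in 1 fit, Rn45s left out and each library left out.

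Of 34 pairs of libraries within groups, 0 were identical, and none agreed within sampling noise. A floor of 3 counts is 5.6e-05% of the smallest and 2.84e-05% of the largest library. On simulated counts, in which 200 genes above 20 CPM had a true log2 difference of 2, 88.5% were recovered among 11852 genes of the IntSC comparison, 25.5% among 10145 of the LEC comparison, 60% among 11665 of the WT comparison and 19% among 13584 of the interaction.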

Additional observations from a re-analysis of the deposited data

Results flagged for a closer look

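The difference in genotype effect between cell types was called for Rarres2, with an interaction of 3.91 on the log2 scale, and for Lrat, with 5.47. Rarres2 was chosen with its values known, so nothing is read from its call, and the adjusted p of Lrat was 0.470 with the replicate block. Among 66 groups of 4 to 6 libraries examined for named genes, 13 held a library far from the others by Dixon's criterion, where chance gives about 1 in 20. Among the members, KO IntSC 4 was highest in its group for Rarres2 (353 CPM, next 232) and for Aldh1a2 (155 CPM, next 88.1), and KO IntSC 5 was lowest for Aldh1a1 (105 CPM, next 176). Stra6 stood out in WT IntSC 1 (1.64 CPM), KO IntSC 3 (0.119 CPM) and WT LEC 2 (4.80 CPM). In WT IntSC 1 and KO IntSC 3 these were 11 reads and 1 read beside 0 in the rest of the group, where any read meets the criterion, so 2 of the 13 follow from zeros. Among the other genes, the libraries that stood out were for Rbp7 WT IntSC 6 (2.28 CPM) and WT LEC 1 (34.0 CPM), for Crabp2 WT IntSC 5 (3.51 CPM), for Bco1 KO IntSC 1 (4.70 CPM), for Gpr1 WT IntSC 6 (4.97 CPM) and KO IntSC 1 (9.92 CPM), and for Ccrl2 WT LEC 4 (39.5 CPM).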

How the results depend on the processing

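For the 6 members fitted, 432 of 438 values under an alternative moved by less than the SD between libraries, and no called direction changed. Many of these alternatives left out 1 library, which usually moves a group mean by only part of that SD. The count is thus no measure of how firm the values are. Over all genes, DESeq2 called 376 genes in IntSCs, 309 in LECs and 1023 in the interaction, in place of 183, 7 and 238. All 4 groups in 1 fit called 27 in IntSCs and 538 in LECs, and in LECs no filter beyond 1 read gave 32 calls and a mean count of at least 10 gave 20. Leaving out 1 library gave 99 to 186 calls in IntSCs (lowest without KO IntSC 3), 0 to 16 in LECs (0 without WT LEC 3, 16 without KO LEC 2), 2233 to 2889 between the WT cell types and 161 to 461 in the interaction (highest without KO LEC 2). Of the pathway list, DESeq2 called 2 genes in IntSCs, 2 in LECs and 2 in the interaction, no filter beyond 1 read 2 in IntSCs, and all 4 groups in 1 fit 2 in LECs. Without 1 library there were 0 to 2 in IntSCs, 0 in LECs, 8 to 9 between the WT cell types and 1 to 2 in the interaction. The causes were not tested.

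Correlations of deviations between libraries of equal replicate number ranged from -0.0681 to 0.0831, against -0.130 to 0.157 for unequal numbers, so the numbers were not taken as pairs. Between WT IntSCs and WT LECs, though, they were 0.0229 to 0.0452 for equal numbers, and 8 of 8 libraries correlated best with their own number, a hint from the data and not from the design. With the replicate block, 3 genes were called in LECs, 1596 between the WT cell types and 16 in the interaction, and of the pathway list 1 in IntSCs, 5 between the WT cell types and 0 in the interaction. The block turned the sign of the log2 fold change of Ccrl2 (-0.10), Rxra (-0.0469) and Rdh10 (-0.00883) in IntSCs, of Cmklr1 (-1.39) in LECs, and of Ccrl2 (-0.42) and Rxra (-0.15) between the WT cell types, and among the members of Aldh1a2 in LECs (0.72) and Aldh1a3 in the interaction (0.00349), none of them called. Between the WT cell types Ccrl2, at 0.003, was also -0.0697 with DESeq2, -0.0696 with RLE factors, -0.000117 with a mean count of at least 10, -0.00270 with all 4 groups and -0.0061 without Rn45s, and Rxra was -0.0299 with DESeq2 and -0.0298 with RLE factors. Leaving out 1 library changed the sign of log2 fold changes that were not called: in IntSCs Ccrl2 (-0.20 to 0.48), Rxra (-0.14 to 0.11) and Rdh10 (-0.0830 to 0.33), in LECs Aldh1a2 (-1.62 to 0.18), Rarb (-0.16 to 0.30), Cmklr1 (-1.40 to 1.18), Ccrl2 (-3.66 to 0.24), Rara (-3.27 to 0.13) and Rdh10 (-1.51 to 1.97), between the WT cell types Ccrl2 (-0.94 to 0.33) and Rxra (-0.10 to 0.19), and in the interaction Aldh1a2 (-0.53 to 1.26), Aldh1a3 (-0.36 to 0.32), Cmklr1 (-1.61 to 1.01), Ccrl2 (-0.0212 to 3.90), Rarg (-0.76 to 0.13) and Rdh10 (-1.77 to 1.76).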
